A study of Mus musculus with 6 samples.

Results

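The 6 genes described here encode the natriuretic peptides Nppa, Nppb and Nppc, the receptors Npr1 and Npr2, and the protease Corin. They were found by their symbols in the deposited comparison table, which was joined to the raw count table by Ensembl gene identifier (the rule used no measured value, although the genes were proposed with earlier results of these data known). All 6 have 1 row each among the 45792 rows of the count table, of which 26306 carry a symbol, and 5 of the 6 had enough counts to be tested among 17125 genes. Counts were obtained from 6 whole mouse hearts at embryonic day 13.5 (e13.5). The 3 control hearts are named wild-type in the sample labels, whereas the methods of the study count every genotype other than Tie2Cre;Ino80 fl/fl as control, so some controls may carry Cre or a floxed allele. The 3 mutant hearts carried Tie2Cre together with both copies of a floxed Ino80 allele, in which an exon is flanked by loxP sites. The labels give the strain as C57BL/6, and the methods describe mixed backgrounds and embryos of both sexes. Ino80 is the ATPase of a chromatin remodelling complex. Tie2Cre acts in endothelial and endocardial cells and their descendants, which include blood cells, so cardiomyocytes in the mutant hearts were meant to keep the gene. For the study as a whole, the methods state that controls were litter mates of the mutants and that several litters were used. Nothing in the labels says which litter each of these hearts came from, so p-values measure the spread between these individual hearts.

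Natriuretic peptides are hormones that are made as longer precursors and cut before they act. Nppa encodes atrial natriuretic peptide and Nppb brain natriuretic peptide; both are made by cardiomyocytes, and Nppa in the fetal heart is a classic marker of the atria and of the trabeculae, the muscular ridges of the ventricular wall. Nppc encodes C-type natriuretic peptide, which is known mostly from endothelial cells and other non-muscle cells. Corin, on the cardiomyocyte surface, cuts the Nppa precursor. Npr1 is the receptor for the products of Nppa and Nppb, and Npr2 for that of Nppc. Both are guanylyl cyclases that make cGMP, which acts through protein kinase G and is removed by phosphodiesterases. The clearance receptor Npr3, which is marked in endocardium and takes up all of these peptides, is given beside them.

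The hearts had between 28948836 and 89675692 counts. Mitochondrial genes took 6.12% to 7.86% of the counts, and haemoglobin genes took 0.661% to 3.77%, with the highest share in control replicate 3. No pair of hearts agreed within counting noise (lowest chi-square over its degrees of freedom 20.5), and each was counted as 1 replicate. Ino80 (ENSMUSG00000034154.13) was at 30.2, 31.6 and 32.7 CPM (counts per M counts, scaled by TMM for library composition) in control replicates 1 to 3 and at 36.5, 33.7 and 31.8 CPM in the mutants. The counts of the targeted gene thus did not separate the labels (log2 fold change 0.11 ± 0.08 (SE), edgeR adjusted p = 0.473), and "control" and "mutant" stand for hearts labelled so. The count of a whole gene includes cells without Cre and exons outside the floxed one. In endothelial cells isolated from Tie2Cre;Ino80 fl/fl hearts, the paper reports that quantitative PCR did not detect Ino80 mRNA. With edgeR's quasi-likelihood test and Benjamini-Hochberg adjustment, 0 of 17125 genes passed an adjusted p of 0.05 in either direction, while 3333 (19.5%) had an unadjusted p below that value. DESeq2, the tool of the study's methods, was rerun here on the raw counts and called 1013 of 16614 genes (6.1%). The study reports fewer genes from its own run. Control replicate 1 stood apart in this respect, since 751 genes were called by edgeR without it. All log2 fold changes are mutant over control. Defining markers of cardiomyocytes were plentiful in all 6 hearts (8 genes, summed level 20438 to 25297 CPM), those of liver summed to at most 1.46 CPM, and those of lung to at most 0.034 CPM.

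Levels between genes were compared per kilobase of annotated exon (GENCODE vM21, GRCm38), in CPM per kb. Nppa stood highest at 235 ± 102 CPM per kb (SD, n = 3) in control hearts and 279 ± 55.5 in mutant hearts, followed by Nppb at 127 ± 57.3 and 139 ± 12.2. Corin was at 18.0 ± 4.22 and 14.6 ± 0.42 CPM per kb, and Npr3 at 15 ± 3.67 and 18.1 ± 1.44. The guanylyl cyclase receptors were lower, Npr2 at 4.86 ± 0.82 and 5.17 ± 0.37 CPM per kb and Npr1 at 3.97 ± 0.45 and 3.98 ± 0.26. Nppc was lowest at 0.285 ± 0.126 and 0.0762 ± 0.0127 CPM per kb. The peptide genes thus stood at both ends of the order. The control ranges of Nppa and Nppb overlapped, although Nppa was above Nppb in 6 of 6 hearts, and Corin was above Npr3 in 2 of 6 hearts, so the order of that pair was not fixed.

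**Figure D1:**
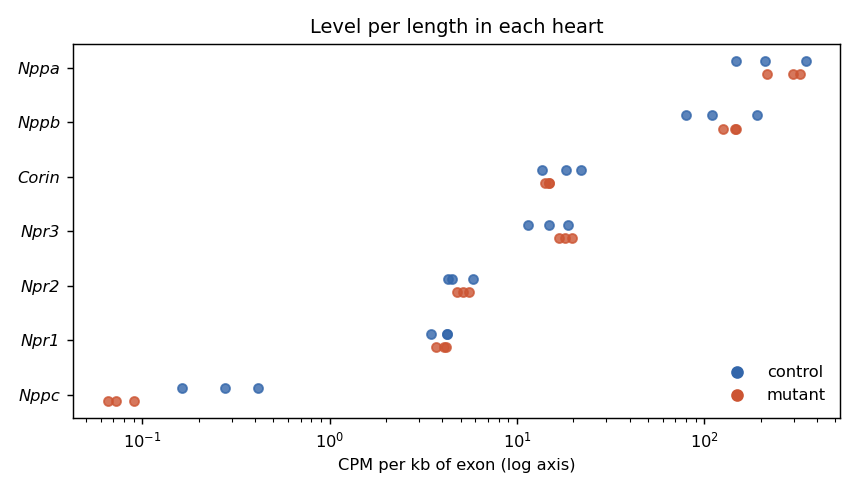
Level of each gene per length in CPM per kb of exon (log axis) in each of the 3 control and 3 mutant hearts, with the genes in order of their control mean. Nppa and Nppb lie at the top (control means of 235 and 127 CPM per kb) and Nppc at the bottom (0.285 CPM per kb), and the ranges of Corin and Npr3 overlap.

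The level of Nppa per length is uncertain in its scale. Of its 865 exon bases, 532 (61.5%) also lie in exons of Gm13054, an antisense gene on the other strand, and neither the strand setting nor the treatment of reads that overlap more than 1 gene is stated. If such reads had been dropped, only 333 bases of Nppa would have collected counts, and its level would be 610 ± 264 CPM per kb in control hearts and 724 ± 144 in mutant hearts. The shared part was 11.7% of the exon bases for Npr1, 5.7% for Npr2, 2.72% for Corin and 0% for Nppb and Nppc. This bears on levels between genes and leaves the place of Nppa at the top of the order as it was.

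Nppa and Nppb lie side by side on chromosome 4, both on the forward strand. The bases before the RefSeq start site of Nppa are shown because they hold the letters bound by GATA, NK-2 and T-box factors. A short stretch of Nppb is shown because it holds those of GATA factors. Factors of these families are cardiac regulators whose genes are among the promoter-binding factors read as a list further on. Capitals mark matches to the motifs searched, on the GRCm38 forward strand, 5′ to 3′, from RefSeq (GRCm38.p6).
Nppa, chr4:148000472-148000721: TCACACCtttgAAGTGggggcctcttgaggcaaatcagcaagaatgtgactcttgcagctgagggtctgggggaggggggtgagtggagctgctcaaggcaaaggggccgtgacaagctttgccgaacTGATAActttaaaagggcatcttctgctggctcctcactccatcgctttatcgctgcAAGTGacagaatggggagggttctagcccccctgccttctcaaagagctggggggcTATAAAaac
Nppb, chr4:147985802-147985824: agcTGATAAatcagAGATAAccc

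In Nppa, the motif of GATA factors, TGATAA, was found at -122 to -117 from the start, that of NK-2 factors, AAGTG, at -239 to -235 and at -65 to -61, that of T-box factors, GGTGTGA, which reads TCACACC on the strand printed, at -250 to -244, and TATAAA at -9 to -4. The 250 bases before the RefSeq start of Nppb held TGATAA at -95 to -90, AGATAA at -84 to -79, CATTCC (TEAD factors) on the opposite strand at -105 to -100 and TATAAA at -31 to -26. The stretch printed for Nppb is upstream of the RefSeq start and inside the exon that GENCODE vM21 annotates there. Among 32841 promoters of the same length, searched on both strands, 7.94% held TGATAA, 9.99% AGATAA, 7.71% AGATAG, 40.7% AAGTG, 3.33% GGTGTGA, 12.6% CATTCC, 12.4% TATAAA and 1.47% the CArG box bound by SRF. TGATAA and AGATAA share the letters GATAA and do not match the same place. In the promoter of Nppc the search found TATAAA only, at -29 to -24, and it found no match in those of Corin, Npr1 and Npr2. A match is a string of letters and does not show that a factor was bound.

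For Nppa (ENSMUSG00000041616.9, chr4:148000722-148002079), the control hearts stood at 182, 128 and 300 CPM and the mutant hearts at 187, 280 and 257 CPM. Control replicate 2 was the lowest heart and control replicate 3 the highest, so the mutant values lay inside the control range. Control hearts averaged 203 ± 87.9 CPM (SD, n = 3) and mutant hearts 241 ± 48.0 CPM. The log2 fold change was 0.25 ± 0.29 (SE) with a 95% interval of -0.41 to 0.90 (edgeR adjusted p = 0.651; DESeq2 adjusted p = 0.764). It ran from 0.0020 without control replicate 2 to 0.64 without control replicate 3.

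For Nppb (ENSMUSG00000029019.8, chr4:147985788-147987205), the control hearts stood at 62.5, 85.5 and 149 CPM and the mutant hearts at 97.6, 114 and 114 CPM. Again control replicate 3 was the highest of all 6 hearts, and the groups overlapped. On average the control hearts had 99 ± 44.8 CPM (SD, n = 3) and the mutant hearts 109 ± 9.54 CPM, with a log2 fold change of 0.13 ± 0.27 (SE), a 95% interval of -0.49 to 0.75 and an edgeR adjusted p of 0.811 (DESeq2 0.895). Its direction rested on single hearts, since leaving out control replicate 1 gave -0.11 and leaving out control replicate 3 gave 0.55. Because these intervals reach from a decrease to an increase, a modest change of either gene was not detectable with 3 hearts a group.

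**Figure D2:**
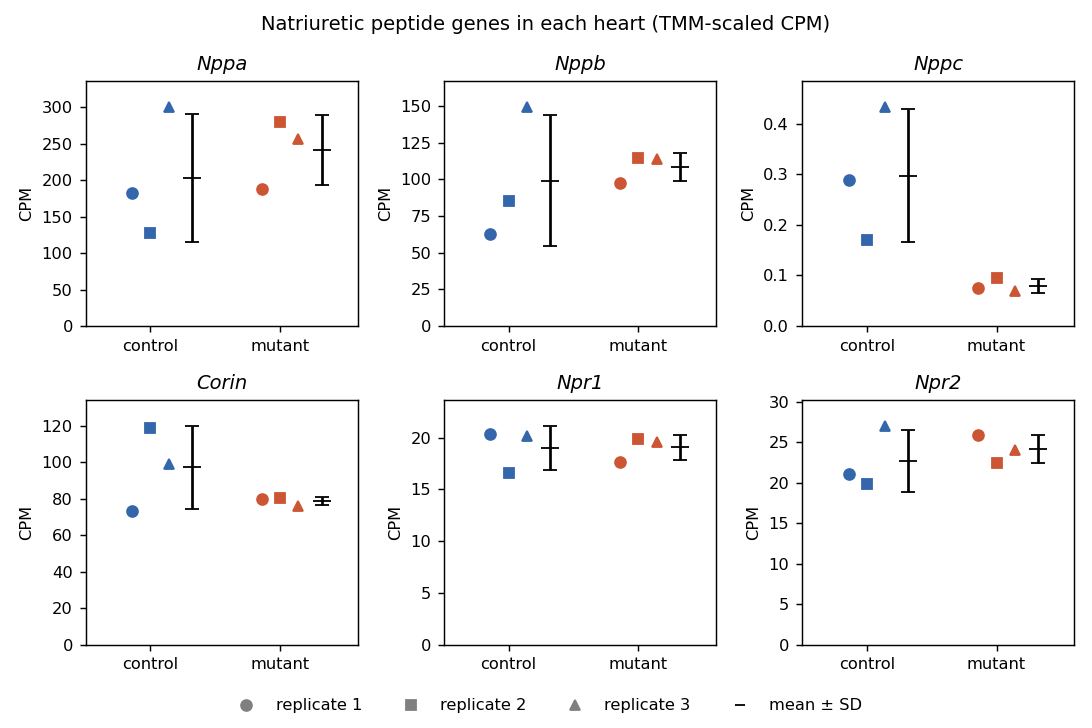
TMM-scaled CPM (linear axes from 0) of the 6 genes in each heart, with the mean and SD of each group beside the points and symbols giving the replicate number. The mutant values of Nppa (187 to 280 CPM) lie inside the control range of 128 to 300 CPM, and for Nppc all 3 mutant hearts lie below the controls.

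Nppa and Nppb varied more among control hearts than nearly all other genes. The highest control heart was 2.35 times the lowest for Nppa and 2.38 times for Nppb. The coefficient of variation of Nppa in control hearts was 43.3%, above that of 99.1% of the 10180 genes with at least 10 CPM, and that of Nppb was 45.2%, above 99.3% of them, against a median of 8.26%. In the mutant hearts it was 19.9% for Nppa, above 96.3% of genes, and 8.79% for Nppb, above 73.0%, with a median of 5.96%. Corin followed with 23.5% in control and 2.89% in mutant hearts, while Npr1 (11.2% and 6.41%) and Npr2 (16.9% and 7.12%) lay nearer to the median. A difference in spread between groups of 3 was not tested. Control replicate 3, the highest heart for both hormone genes, also had the highest summed level of 5 erythroid markers (9735 CPM, against 2452 to 4250 CPM in the other 5 hearts) and of 8 cardiomyocyte markers (25297 CPM, against 20438 to 22988 CPM). Most of that erythroid sum was Hba-a1 (9411 CPM). Hbb-y was at 454, 42.6 and 155 CPM in control and 802, 1201 and 1127 CPM in mutant hearts (log2 fold change 2.26 ± 0.69 (SE), edgeR adjusted p = 0.155, DESeq2 0.081). Its groups did not overlap, and the other 4 erythroid markers had negative log2 fold changes. The part of these markers in the result was not tested.

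Nppb was also set against Nppa within each heart, which asks whether the neighbouring genes changed in proportion. The log2 ratio of Nppb to Nppa was -1.54, -0.58 and -1.01 in control and -0.94, -1.29 and -1.17 in mutant hearts. Nppb was below Nppa in every heart, and the ratio differed between the groups by -0.09 (exact two-sided permutation test, p = 0.9, adjusted p = 0.9 over the 11 ratios compared here; 3 against 3 hearts cannot reach a p below 0.1). The 2 genes did not deviate alike in every heart, since control replicate 1 was the lowest of the 6 for Nppb and control replicate 2 for Nppa.

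**Figure D3:**
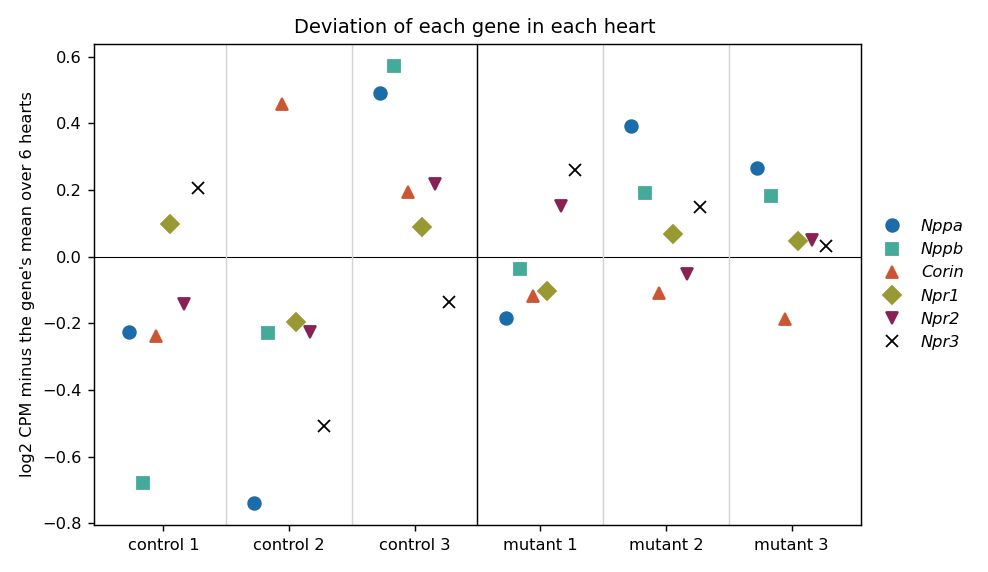
Log2 CPM of 5 tested genes and Npr3 in each heart, minus the gene's mean over the 6 hearts, with a symbol for each gene and a line between the groups. The hormone genes spread widest among control hearts, with Nppa lowest in control replicate 2, Nppb lowest in control replicate 1 and both highest in control replicate 3.

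Nppc (ENSMUSG00000026241.5, chr1:86666291-86670571, reverse strand) was barely detected, with 11, 5 and 14 counts in the control hearts and 7, 4 and 2 in the mutant hearts. Scaled for depth these were 0.289, 0.170 and 0.432 CPM against 0.0757, 0.0940 and 0.0684 CPM, so every mutant heart lay below every control heart. Such a gap, lower in the mutants, was seen for 12.8% of all tested genes. The summed counts, 30 and 13, gave a mutant to control ratio of 0.263 with an exact 95% interval of 0.126 to 0.520 for counting error only. Nppc did not pass the filter on low counts and has no edgeR test here. In an edgeR fit that kept every gene with at least 1 count, its log2 fold change was -1.86 ± 0.60 (SE), with an edgeR adjusted p of 0.138. DESeq2 gave -1.91 ± 0.86 and set no adjusted p for so low a gene. At this depth the lower level is a difference of a few counts a heart that did not pass adjustment.

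Relative to 6 pan-endothelial markers, Nppc was lower by 1.73 on the log2 scale in mutant hearts (exact two-sided permutation p = 0.1, the smallest possible; adjusted p = 0.367), and the groups did not overlap. Markers of capillary endothelium moved in the same direction: their summed level was 345, 537 and 486 CPM in control and 258, 223 and 230 CPM in mutant hearts, and 4 of 4 markers were lower at an unadjusted edgeR p under 0.05 (9.98% of all tested genes) and in DESeq2 after adjustment (3.43%). Summed pan-endothelial markers (687 to 871 CPM in control, 779 to 821 CPM in mutant hearts) overlapped. The 4 endocardial markers summed to 269, 143 and 200 CPM in control and 257 to 279 CPM in mutant hearts, which overlapped. All 4 had positive log2 fold changes (median 0.39), as did 8509 of all 17125 tested genes. The part of these cells in the Nppc counts was not tested, and in whole hearts fewer cells of a type and less RNA per cell cannot be told apart.

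Corin (ENSMUSG00000005220.8, chr5:72300025-72504473, reverse strand) had the lowest tested fold change of the 5. Control hearts stood at 73.4, 119 and 99.05 CPM and mutant hearts at 79.8, 80.2 and 76.1 CPM. Control replicate 1 was below all mutants and the other controls above them, so the groups overlapped. Control hearts averaged 97.1 ± 22.8 CPM (SD, n = 3) and mutant hearts 78.7 ± 2.27 CPM, and the log2 fold change was -0.30 ± 0.15 (SE), with a 95% interval of -0.65 to 0.05 (edgeR adjusted p = 0.313; DESeq2 adjusted p = 0.270). Control replicate 1 decided the call, and Corin was the 1 member called in any fit that left out a heart: without that heart it was -0.47 with an edgeR adjusted p of 0.0418, in a fit that called 751 genes. Without control replicate 2 it was -0.13.

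Of the 5 tested members, the receptors Npr1 and Npr2 had the fold changes nearest to 0. Npr1 (ENSMUSG00000027931.10, chr3:90450591-90465866, reverse strand) was at 20.3, 16.5 and 20.2 CPM in control and 17.6, 19.9 and 19.6 CPM in mutant hearts. The means of 19.0 ± 2.13 and 19.0 ± 1.22 CPM (SD, n = 3) gave a log2 fold change of -0.00015 ± 0.11 (SE), with a 95% interval of -0.25 to 0.25 (edgeR adjusted p = 0.9995), the narrowest of the 5. Npr2 (ENSMUSG00000028469.13, chr4:43631935-43651244) was at 21.1, 19.9 and 27.0 CPM in control and 25.9, 22.4 and 24.1 CPM in mutant hearts, with overlapping groups and a log2 fold change of 0.09 ± 0.13 (95% interval -0.20 to 0.38, edgeR adjusted p = 0.713). The clearance receptor Npr3 was at 177, 108 and 139 CPM in control and 184, 170 and 157 CPM in mutant hearts, with a log2 fold change of 0.27 ± 0.16 (95% interval -0.11 to 0.64, edgeR adjusted p = 0.385). The summed level of 4 endocardial markers followed the same order among control hearts (269, 143 and 200 CPM) and was 257 to 279 CPM in mutant hearts. Its part in the Npr3 values was not tested.

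Across the 5 tested genes, 0 passed the adjusted threshold in edgeR (0% of all tested genes did, in either direction), 0 had an unadjusted p under 0.05 (19.5% of all tested genes) and 0 passed in DESeq2 (2.67% of genes were higher and 3.43% lower). For 0 of the 5 were the groups without overlap, against 27.1% of all tested genes. Their fold changes were positive for 3 and negative for 2, with a median of 0.09 against -0.0017 for all tested genes.

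**Figure D4:**
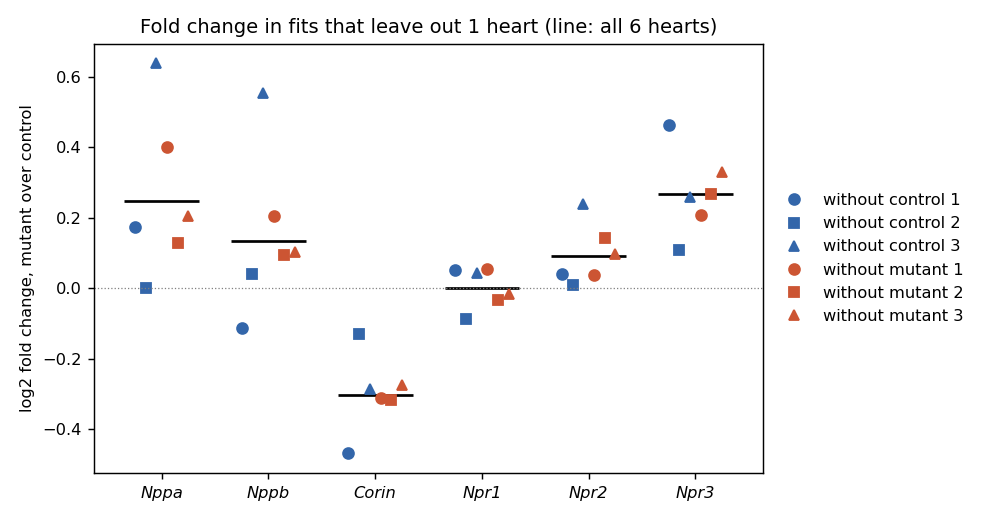
Log2 fold change of the 5 tested genes and Npr3 in the fit of all 6 hearts (lines) and (points) in the 6 fits that leave out 1 heart each. Nppa and Nppb range widest, from 0.0020 to 0.64 and from -0.11 to 0.55, and the lowest value of Corin, -0.47, comes without control replicate 1.

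Since Nppa, Nppb and Corin are known from cardiomyocytes, each member was also set against the mean log2 level of 8 cardiomyocyte markers in the same heart. The mutant minus control differences on the log2 scale were 0.43 for Nppa (exact two-sided permutation p = 0.3), 0.33 for Nppb (p = 0.4) and -0.17 for Corin (p = 0.7). They were 0.12 for Npr1 (exact p = 0.5), 0.21 for Npr2 (p = 0.1) and -1.57 for Nppc (p = 0.1). Relative to the pan-endothelial markers, Npr1 differed by -0.04 (exact permutation p = 0.7) and Npr3 by 0.24 (p = 0.3). The lowest adjusted p over the 11 ratios was 0.367. Npr2 relative to cardiomyocyte markers was higher in all 3 mutant hearts (-6.06, -6.23 and -6.15) than in the controls (-6.27, -6.49 and -6.31), and the groups did not overlap. Among single genes, 14.3% were higher in the mutants without overlap, and the level of Npr2 itself overlapped (log2 fold change 0.09). Of the 8 cardiomyocyte markers, 7 had negative log2 fold changes (median -0.14 over the 8), as did 8616 of all 17125 tested genes. At an unadjusted edgeR p under 0.05, 0 of the 8 were lower and 1, Myh6, was higher. Myh6 was at 1382 ± 271 and 1925 ± 261 CPM without overlap (log2 fold change 0.48, edgeR adjusted p = 0.180, DESeq2 0.038). A lower reference raises a ratio, and its part in these values was not tested.

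Around the members, the rest of the pathway was read from 19 genes that process or clear the peptides or act in cGMP signalling. Of these, 18 could be tested and 0 passed edgeR's adjusted threshold; Ostn, whose product competes for the clearance receptor, had 0 counts. At an unadjusted p under 0.05, 4 were higher and 3 lower in mutant hearts, against 9.48% and 9.98% of all tested genes, and the median log2 fold change was 0.13. DESeq2 called 3 higher and 2 lower, against 2.67% and 3.43% of all genes. Mme, or neprilysin, the membrane protease that breaks down natriuretic peptides, stood at 14.2, 8.65 and 9.45 CPM in control and 20.0, 22.4 and 19.3 CPM in mutant hearts. All mutant values lay above the controls, with a log2 fold change of 0.93 ± 0.18 (SE) (edgeR adjusted p = 0.083, DESeq2 1.02e-04). Pcsk6, the proprotein convertase that activates corin, was at 15.4, 14.4 and 13.1 CPM against 19.5, 18.0 and 34.7 CPM, with mutant replicate 3 far above the rest (log2 fold change 0.74 ± 0.23, edgeR adjusted p = 0.164, DESeq2 0.021). Ide, the insulin-degrading enzyme, which also cuts natriuretic peptides, was at 125 ± 9.51 CPM in control and 102 ± 3.56 CPM in mutant hearts (log2 fold change -0.29, edgeR adjusted p = 0.123, DESeq2 0.043).

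In the cGMP arm, the soluble guanylyl cyclase subunit Gucy1a3 was at 82.6 ± 7.23 CPM in control and 104 ± 0.85 CPM in mutant hearts (log2 fold change 0.33, edgeR adjusted p = 0.10, DESeq2 0.020). Rgs2, a regulator of G protein signalling that protein kinase G acts on, was at 19.8 ± 2.55 and 14.8 ± 0.28 CPM (-0.42, edgeR adjusted p = 0.121, DESeq2 0.031). Pde2a, a phosphodiesterase that cGMP stimulates, was at 34.3 ± 7.12 and 25.3 ± 1.41 CPM (-0.44, edgeR adjusted p = 0.179, DESeq2 0.075), with overlapping groups. The kinase gene Prkg2 was low, at 0.166 ± 0.067 and 0.579 ± 0.157 CPM (1.83, edgeR adjusted p = 0.10, DESeq2 0.070). Of the 18 tested genes, the groups did not overlap for 8, with 6 higher and 2 lower in mutant hearts (14.3% and 12.8% of all tested genes).

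Of 17 genes for transcription factors known to act on the Nppa and Nppb promoters, all were tested and 0 passed edgeR's adjusted threshold. DESeq2 called 2 higher and 1 lower, against 2.67% and 3.43% of all genes. Tbx5, the T-box activator of Nppa, had the largest change of the list, at 41.5, 40.6 and 37.6 CPM in control and 58.7, 62.4 and 53.2 CPM in mutant hearts. All 3 mutants lay above all controls (log2 fold change 0.54 ± 0.08 (SE), edgeR adjusted p = 0.0645, DESeq2 7.1e-05). Tbx3, a T-box repressor of the same gene, was at 9.25 ± 0.41 and 12.6 ± 1.21 CPM (0.45, edgeR adjusted p = 0.108, DESeq2 0.029). Lower values were seen for the activators Mef2a, at 363 ± 30.6 and 280 ± 19.4 CPM (-0.37, edgeR adjusted p = 0.111, DESeq2 0.0095), and Gata6, at 198 ± 17.2 and 161 ± 14.4 CPM (-0.30, edgeR adjusted p = 0.165, DESeq2 0.068). Hey2, a repressor of trabecular genes in the compact wall, was at 188 ± 22.3 and 154 ± 4.44 CPM (-0.29, edgeR adjusted p = 0.170, DESeq2 0.088). The activators therefore had members on both sides, and the medians of 0.05 over 11 activators and 0.08 over 6 repressors were small.

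Because Nppa marks atria and trabeculae, 20 genes that mark chambers were read beside it, with 0 called by edgeR and 5 higher by DESeq2 (2.67% of all genes). Of 8 atrial genes, 6 were positive with a median log2 fold change of 0.29 (8509 of all 17125 tested genes were positive), and 5 were higher at an unadjusted p under 0.05 (9.48% of all tested genes). They included the atrial light chains Myl7, at 262, 207 and 319 CPM in control and 360, 541 and 370 CPM in mutant hearts (0.69 ± 0.20, edgeR adjusted p = 0.139, DESeq2 0.0069), and Myl4, at 1230 ± 32.3 and 1513 ± 130 CPM (0.30, edgeR adjusted p = 0.162, DESeq2 0.029). Nr2f1, an orphan nuclear receptor gene of atrial muscle, had the largest change, at 4.70 ± 1.26 and 9.02 ± 1.64 CPM (0.94, edgeR adjusted p = 0.10, DESeq2 0.0024), Dkk3 was at 49.7 ± 10.8 and 72.2 ± 7.20 CPM (0.54, edgeR adjusted p = 0.144, DESeq2 0.022) and Nr2f2 at 29.9 ± 3.29 and 36.2 ± 2.14 CPM (0.28, edgeR adjusted p = 0.196, DESeq2 0.171).

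The summed atrial level, most of it Myl4, was 1645, 1510 and 1681 CPM in control and 1891, 2326 and 2050 CPM in mutant hearts, without overlap. The mean log2 level of the same 8 genes, which weights them equally, was 5.01, 5.08 and 5.51 in control and 5.50, 5.70 and 5.39 in mutant hearts, which overlapped, and Sln and Kcna5, named after their values were seen, had negative log2 fold changes (-0.17 and -0.35). Relative to the atrial list, a ratio chosen after seeing the data, Nppa differed between groups by -0.04 on the log2 scale (exact two-sided permutation p = 0.9). The part of atrial tissue in the Nppa values was not tested. All 4 trabecular genes were positive, with a median of 0.22, led by Gja5, the connexin of trabecular and atrial muscle, at 142, 109 and 94.5 CPM in control and 171, 157 and 176 CPM in mutant hearts (0.54 ± 0.14, edgeR adjusted p = 0.118, DESeq2 0.0071). The 3 compact wall genes had a median of -0.10, with Mycn at 51.0 ± 6.30 and 59.6 ± 1.94 CPM (0.23, edgeR adjusted p = 0.248, DESeq2 0.263) opposite to Hey2, and the 5 ventricular genes had a median of -0.13 with 0 at an unadjusted p under 0.05.

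**Figure D5:**
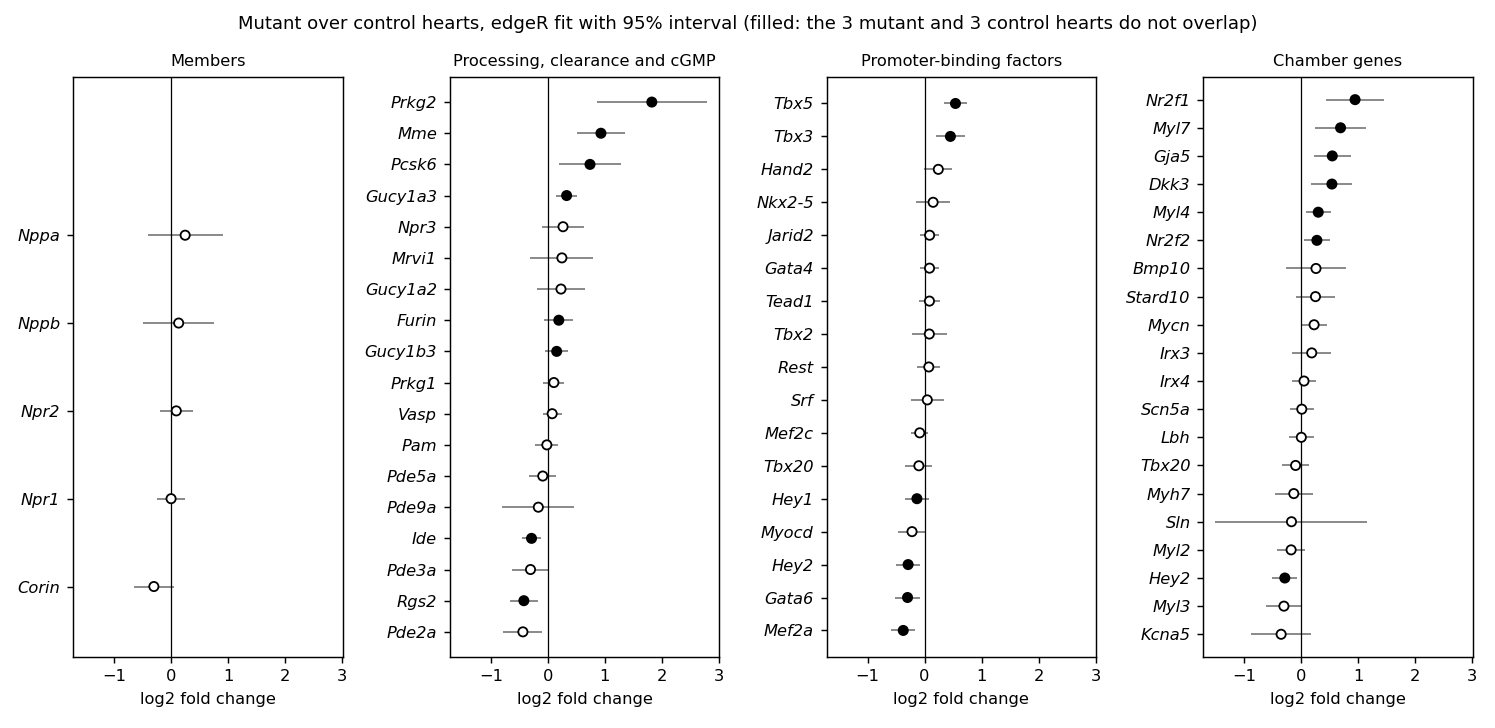
Log2 fold change (mutant over control) from edgeR with 95% intervals in 4 panels, for the 5 tested members, the 18 tested pathway genes, the 17 promoter-binding factors and the 20 chamber genes; filled points mark genes whose groups do not overlap. All 5 member intervals include 0 and all 5 points are open, while filled points lie on both sides of 0 among the pathway genes (6 higher and 2 lower).

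Protein-coding genes annotated within 100 kb of Nppa or Nppb were read beside them. Mfn2, which encodes the mitochondrial fusion protein mitofusin 2, was at 274, 329 and 316 CPM in control and 253, 228 and 224 CPM in mutant hearts, all mutants lying below the controls (log2 fold change -0.38 ± 0.09 (SE), edgeR adjusted p = 0.111, DESeq2 0.010). Plod1, a collagen lysyl hydroxylase gene, was at 67.1 ± 11.1 and 55.0 ± 2.16 CPM (-0.29, edgeR adjusted p = 0.225). The neighbours 2510039O18Rik, Clcn6 and Agtrap had log2 fold changes of 0.11, 0.14 and -0.05, and Draxin was below the filter. The neighbours thus differed in sign among themselves, and those with the lowest values lay on the far side of Nppb from Nppa.

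The genes whose heart to heart pattern was nearest to that of Nppa were found by the root mean square difference of their log2 deviations over the 6 hearts, among 10179 genes with at least 10 CPM. They included Synm (0.209), D8Ertd82e (0.218), Nos3 (0.223) and Spon1 (0.228), against a median of 0.444 over all genes. Synm, which encodes the intermediate filament protein synemin, stood at 13, 10.2 and 17.6 CPM in control and 16.2, 16.7 and 16.9 CPM in mutant hearts, with control replicate 2 lowest and control replicate 3 highest as for Nppa. Nearest to Nppb were Gm26917 (0.165), Rn7sk (0.179), Cyr61 (0.202), Dusp8 (0.205) and Pcdh1 (0.209), against a median of 0.406. Rn7sk, a small nuclear RNA without a poly(A) tail, stood at 16.7, 32.4 and 48.8 CPM in control and 31.2, 31.9 and 41.4 CPM in mutant hearts, and like Nppb was lowest in control replicate 1 and highest in control replicate 3. The distance between Nppa and Nppb was 0.299, which placed Nppb at rank 110 from Nppa and Nppa at rank 199 from Nppb. Both genes of a pair are read from the same 6 libraries, so these distances are a description only.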

How the data were processed

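RNA of 3 control and 3 Tie2Cre;Ino80 fl/fl whole hearts at e13.5 was sequenced by the authors as 76 bp paired-end reads, which were mapped to GRCm38 (mm10) with STAR 2.4.2a and counted on GENCODE annotation with summarizeOverlaps. The deposited values are raw counts per gene, without normalization. The authors' second table holds their own DESeq2 comparison (mean, log2 fold change, p-values), of which only the gene symbols were used. Coordinates and exon lengths were taken from GENCODE vM21 (45229 of 45792 identifiers matched) and promoter sequences from RefSeq, in which all 6 genes were found.

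The test was edgeR 4.0.16 (limma 3.58.1, R 4.3.3): filterByExpr (minimum count 10, minimum total 15), TMM, a quasi-likelihood fit with condition as the only term, Benjamini-Hochberg adjustment over all tested genes and an adjusted p threshold of 0.05. The SE is the size of the log2 fold change divided by the square root of F. DESeq2 1.42.0 was an alternative, as were RLE size factors, filters of at least 1 count or at least 1 CPM in 3 hearts, counts thinned to the shallowest heart, fits without each heart in turn and the replicate number as a block. Ratios within hearts used log2 CPM with a prior count of 0.5 (alternative 2) and exact two-sided permutation tests. Sums of CPM were taken over marker lists. The common coefficient of biological variation was 0.153. The number of hearts and their spread limited the precision except for Nppc.

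The members and lists were chosen with earlier results of these data known. Named were all 6 members, the genes of the pathway, promoter-binding factor and chamber lists with an unadjusted p under 0.05 or the largest change of a list, the protein-coding genes within 100 kb of Nppa or Nppb, the 5 genes nearest to Nppa and to Nppb, and Ino80. The results of 2 genes that this rule names are not reported here. Epicardial, mesenchymal, smooth muscle, macrophage and neural markers were measured too and are given in the closing section. The fits were tested on simulated counts.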

Additional observations from a re-analysis of the deposited data

How the results depend on the processing

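Of 17125 genes, edgeR called 0 with an adjusted p under 0.05; DESeq2 called 1013, the filter of at least 1 count 603 and the replicate block 14, and leaving out 1 heart gave 0 to 751 (751 without control replicate 1, 3 without control replicate 2). For the 5 members the count was 0 under each of these, except 1 (Corin) without control replicate 1, a range of 0 to 1. Calls in the pathway list, 0 in the fit as reported, came to 5 with DESeq2 (Gucy1a3, Ide, Mme, Pcsk6 and Rgs2), 2 with the filter of at least 1 count and 0 to 2 with a heart left out (Mme and Pde2a without control replicate 1); those among promoter-binding factors to 3, 1 (Tbx5) and 0 to 1 (Tbx5), and those among chamber genes to 5, 4 and 0 to 1 (Gja5). RLE size factors, thinning and the filter of 1 CPM in 3 hearts left each of these counts at 0.

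Log2 fold changes with 1 heart left out ran from 0.0020 to 0.64 for Nppa, -0.11 to 0.55 for Nppb, -0.47 to -0.13 for Corin (adjusted p = 0.0418 in edgeR without control replicate 1), -0.088 to 0.055 for Npr1, 0.0084 to 0.24 for Npr2 and 0.11 to 0.46 for Npr3. Nppc gave -2.13 to -1.82 in the 2 such fits in which it passed the filter, with an edgeR adjusted p of 0.1845 or more. Npr1 had a value near 0 whose sign turned with the filter of at least 1 count (0.0085), the filter of 1 CPM (0.0012), thinning (0.045) and the replicate block (0.0044). With a heart left out, Corin relative to cardiomyocyte markers ran from -0.26 to 0.016, Npr1 relative to pan-endothelial markers from -0.093 to 0.026, Nppb relative to Nppa from -0.34 to 0.14 and Nppa relative to the atrial list from -0.28 to 0.11. The cause of these shifts was not tested.

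The methods state that controls were litter mates, but the labels do not say whether the replicate numbers pair the hearts. The deviations of same-numbered hearts correlated at 0.02, -0.08 and -0.07, and those of differently numbered hearts at -0.08 to 0.14. With 3 hearts a group these values cannot decide whether the hearts were paired. The replicate block gave log2 fold changes of 0.31 for Nppa, 0.23 for Nppb, -0.28 for Corin, 0.10 for Npr2 and 0.29 for Npr3 and called 0 of them. Nppc did not pass the filter in the fits with RLE size factors, 1 CPM, thinning or the block and has no value there. With 3 hearts a group, the exact tests of ratios could not pass 0.05.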

Other observations

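The antisense gene Gm13054, whose exons cover much of Nppa, was at 0.105, 0.340 and 0.617 CPM in control hearts (4, 10 and 20 counts) and at 0.627, 0.987 and 0.855 CPM in mutant hearts (58, 42 and 25 counts). It was chosen after its values were seen. Every mutant heart lay above every control heart, as for 14.3% of all tested genes, with a log2 fold change of 1.22 ± 0.53 (SE), an unadjusted edgeR p of 0.0497 and an adjusted p of 0.256. Without a known strand setting its reads and those of Nppa cannot be told apart. The antisense gene of Npr2, Gm12473, was at 0.579 to 0.957 CPM in control and 0.898 to 1.16 CPM in mutant hearts, which overlapped (log2 fold change 0.42, edgeR adjusted p = 0.434), and that of Npr1, Gm16048, had 0 to 3 counts a heart.

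Markers of other cell types were read beside the peptide genes. The summed level of 5 epicardial markers was 152 to 156 CPM in control and 165 to 192 CPM in mutant hearts, without overlap. Such a gap, higher in the mutants, was seen for 14.3% of all tested genes. The covering-layer marker Upk3b was at 42.2 ± 5.51 and 62.7 ± 6.13 CPM (log2 fold change 0.57, edgeR adjusted p = 0.083, DESeq2 0.0011). The rest of the list overlapped, with log2 fold changes of 0.0046 for Wt1, -0.10 for Tbx18, 0.21 for Aldh1a2 and 0.23 for Tcf21. Of 5 mesenchymal markers, Postn and Dcn were lower (554 ± 45.9 to 410 ± 20.5 CPM and 164 ± 17.4 to 119 ± 9.43 CPM) and Twist1 higher (6.86 ± 3.05 to 13.4 ± 1.22 CPM) at an unadjusted edgeR p under 0.05. Of all tested genes, 9.98% were lower and 9.48% higher at that p. In edgeR 0 of the 5 passed adjustment, while DESeq2 called these 3 (3.43% of all genes were called lower and 2.67% higher). Pdgfra (log2 fold change 0.29) and Col1a1 (0.08) were not called. Macrophage markers summed to 34.5 to 51.8 CPM in control and 48.2 to 55.1 CPM in mutant hearts, smooth muscle markers to 1083 to 1323 and 957 to 1200 CPM, and neural markers to 1.98 to 3.31 and 2.53 to 3.08 CPM, each with overlapping groups. Most of the smooth muscle sum was Acta2 (1105 ± 153 and 1023 ± 109 CPM). Myh11 was at 2.77 ± 2.08 and 0.515 ± 0.182 CPM (log2 fold change -2.40, edgeR adjusted p = 0.131, DESeq2 0.0020), with overlapping groups. Tagln had the opposite sign (0.62, edgeR adjusted p = 0.279, DESeq2 0.397). The part of these cell types in the values of the natriuretic peptide genes was not tested.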
